A study of Mus musculus with 52 samples.

Results

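The data described here are the accessibility values of the promoters on mouse chromosome 1, taken as every promoter that the deposited tables place on that chromosome. There were 1224 of them among the 20633 promoters measured in the whole series, and they belonged to 1145 named genes. Particular attention went to 3 stretches, in which the promoters of the Kdm2a-CXXC line had been seen to depart from those of the other lines. Of these, 34 promoters run from Dst to Tmem131 (chr1:34011625-36939727), 50 from Tsn to Cxcr4 (chr1:118310933-128592499) and 34 from Il10 to Lrrn2 (chr1:131019645-132880554). The stretches were picked on the differences between lines in these same libraries, so those differences are given as a description, without a test.

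Mouse embryonic stem cells (mESCs) of 4 conditional genotypes were profiled by cATAC-seq, in which Drosophila cells added to each sample calibrate the ATAC-seq signal. These were Kdm2b-CXXCfl/fl, Kdm2a-CXXCfl/fl, Kdm2a/b-JmjCfl/fl and Kdm2a/b-CXXCfl/fl, written below without the fl/fl. Untreated cells were compared with cells given 4-hydroxytamoxifen (800 nM for 96 h), which turns on a CreERT2 recombinase in all of them. In Kdm2a/b-JmjC cells this deletes the JmjC exons of both genes, so that the long isoforms are lost, and in the other lines it deletes the ZF-CxxC domain of the gene or genes named. Each line had 3 libraries per treatment, and Kdm2a/b-CXXC had 4, which makes 26 ATAC libraries. Before tamoxifen the cells of every line still carry the complete genes, and the untreated libraries are therefore not mutants. The Kdm2a/b-JmjC cells were derived from targeted mice. The Kdm2a-CXXC cells were made by genome editing in Rosa26::CreERT2 mESCs, whereas the Kdm2a/b-CXXC cells were made by the same route in Kdm2b-CXXC mESCs, each through an isolated targeted clone. With a single line per genotype, the genotype of a line and the history of its cells cannot be told apart. Matched genomic DNA libraries are not analysed here.

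KDM2A and KDM2B are histone demethylases that reach CpG islands through a zinc finger of the CxxC type, which binds DNA with unmethylated CpG dinucleotides. CpG islands cover most promoters of broadly expressed genes, and in mESCs these promoters are open to the Tn5 transposase that ATAC-seq relies on. The reads come from whole cultures, so more cells with an open promoter and a more open promoter in each cell cannot be told apart. Reads of a promoter were not set against its genomic DNA reads either, so differences in the amount of its DNA were not tested.

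To show what kind of sequence was measured, the part of the 400 bp interval upstream of the annotated transcription start is printed for 6 promoters that face each other across 3 of the steps described below. They were read from the GRCm38.p6 reference, the same build as mm10, in the direction of the gene, and CpG dinucleotides are in capitals. The start sites are those annotated by RefSeq.
Dst (chr1:34011625-34011824, plus strand): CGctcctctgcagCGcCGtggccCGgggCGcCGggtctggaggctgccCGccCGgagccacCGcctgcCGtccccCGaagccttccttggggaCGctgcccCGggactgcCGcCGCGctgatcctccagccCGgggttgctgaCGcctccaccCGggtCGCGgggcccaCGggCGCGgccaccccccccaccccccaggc
Ccdc115 (chr1:34439674-34439872, minus strand): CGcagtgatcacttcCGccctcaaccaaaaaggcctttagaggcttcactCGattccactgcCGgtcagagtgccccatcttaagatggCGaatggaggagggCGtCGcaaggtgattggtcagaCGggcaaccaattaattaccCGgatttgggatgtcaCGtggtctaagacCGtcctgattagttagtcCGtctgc
Hes6 (chr1:91413224-91413422, minus strand): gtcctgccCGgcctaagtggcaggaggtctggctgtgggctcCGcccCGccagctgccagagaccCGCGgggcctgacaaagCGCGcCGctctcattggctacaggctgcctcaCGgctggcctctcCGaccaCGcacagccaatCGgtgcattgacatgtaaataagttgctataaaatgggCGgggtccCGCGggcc
Per2 (chr1:91459326-91459528, minus strand): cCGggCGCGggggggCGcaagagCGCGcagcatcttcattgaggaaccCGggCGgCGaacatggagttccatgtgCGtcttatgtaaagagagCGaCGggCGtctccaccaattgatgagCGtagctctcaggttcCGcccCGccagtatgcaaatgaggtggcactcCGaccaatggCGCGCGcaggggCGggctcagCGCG
Thsd7b (chr1:129273104-129273302, plus strand): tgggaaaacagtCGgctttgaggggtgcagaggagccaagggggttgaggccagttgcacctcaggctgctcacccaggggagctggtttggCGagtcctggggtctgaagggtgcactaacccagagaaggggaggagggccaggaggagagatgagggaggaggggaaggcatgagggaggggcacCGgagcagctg
Yod1 (chr1:130717127-130717326, plus strand): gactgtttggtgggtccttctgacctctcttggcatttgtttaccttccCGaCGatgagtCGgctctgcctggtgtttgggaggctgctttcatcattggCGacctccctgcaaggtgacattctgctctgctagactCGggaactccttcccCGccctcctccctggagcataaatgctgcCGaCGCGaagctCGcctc
The facing promoters were not alike in CpG content. The Dst window held 24 CpG dinucleotides and that of Ccdc115 held 12, whereas that of Thsd7b held 3 and that of Yod1 10. Those of Hes6 and Per2 held 15 and 23. Of the promoters with known base composition, 58.8%, 62% and 58.8% were CpG-rich in the Dst to Tmem131, Tsn to Cxcr4 and Il10 to Lrrn2 stretches, against 50.5% on the remainder of chromosome 1 and 54.6% of all promoters in the series. A promoter was counted as CpG-rich when its interval had 50% GC or more and CpG dinucleotides at 0.6 or more of the number that base composition predicts.

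The lines were calibrated separately, so between lines only shares of promoter reads were compared. A library's reads at a promoter were divided by its total over all promoters and multiplied by 1000000 (RPM). That total ran from 1.49 M to 3.03 M reads per library. Values per line cover the 858 chromosome 1 promoters with a mean of at least 20 reads over the 26 libraries, which include 29, 42 and 24 promoters of the Dst to Tmem131, Tsn to Cxcr4 and Il10 to Lrrn2 stretches. Log2 ratios between lines are on the scale of log2(RPM + 0.5). As a check of the cells, 7 of the 11 promoters of 10 mESC marker genes were above the median of all promoters, among them Sox2, Zfp42 and Tfcp2l1, against 0 of 5 fibroblast, 1 of 5 primitive endoderm, 0 of 4 blood and 3 of 5 neural promoters. The Esrrb, Dppa4 and Pou5f1 promoters were below that median. The neural promoters above it were those of Map2, Olig2 and Tubb3. The summed share of the mESC markers was 820 to 878 RPM in Kdm2a-CXXC and 649 to 799 over the libraries of the other lines. Tfcp2l1 itself lies in the Tsn to Cxcr4 stretch.

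Chromosome 1 did not take the same share of promoter reads in the 4 lines. It took 7.78% ± 0.110 of the promoter reads in Kdm2a/b-JmjC (SD, n = 6), 7.23% ± 0.0401 in Kdm2a-CXXC (n = 6), 5.57% ± 0.0655 in Kdm2b-CXXC (n = 6) and 5.51% ± 0.0801 in Kdm2a/b-CXXC (n = 8), over both treatments. The libraries of the first line ran from 7.66% to 7.94% and those of Kdm2a-CXXC from 7.20% to 7.30%, so these did not overlap each other or the remaining lines. Kdm2b-CXXC (5.50% to 5.68%) and Kdm2a/b-CXXC (5.40% to 5.61%) overlapped. The higher shares of Kdm2a/b-JmjC and Kdm2a-CXXC had different shapes along the chromosome.

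**Figure D1:**
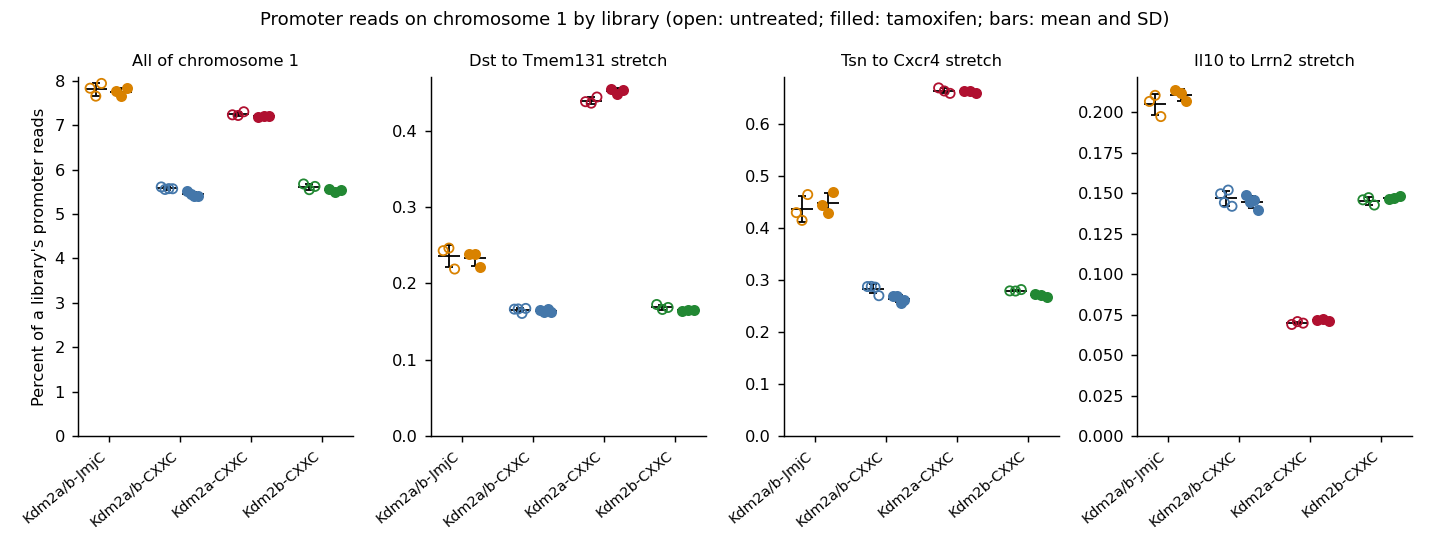
Percent of each library's promoter reads on all of chromosome 1 and in its 3 stretches, by line and treatment, with the mean and SD of each group as bars. Kdm2a-CXXC libraries lie between 0.436% and 0.454% in the Dst to Tmem131 stretch and between 0.0689% and 0.0720% in the Il10 to Lrrn2 stretch, away from every library of the other lines.

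The excess of Kdm2a/b-JmjC was spread along the whole chromosome. Its promoters outside the stretches stood at a median log2 ratio of 0.45 to Kdm2b-CXXC, with 744 of 763 above 0, and those of the stretches at 0.53, 0.67 and 0.49. The same ratio over all other chromosomes was -0.054. A running median over 11 neighbouring promoters stayed between 0.24 and 0.83 along chromosome 1.

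In Kdm2a-CXXC the corresponding running median went from -1.23 to 1.48. Its promoters outside the stretches had a median log2 ratio of 0.21 to Kdm2b-CXXC, those of the Dst to Tmem131 stretch 1.41, those of the Tsn to Cxcr4 stretch 1.28 and those of the Il10 to Lrrn2 stretch -1.15. In folds, these are 2.65, 2.43 and 0.451 times the Kdm2b-CXXC level. Against Kdm2a/b-CXXC the folds were 2.73, 2.37 and 0.454, and against Kdm2a/b-JmjC they were 1.90, 1.49 and 0.336. Kdm2a/b-CXXC, which was made from the Kdm2b-CXXC cells, stayed near them, with medians of -0.021, 0.0055 and -0.0082 in the stretches and -0.011 outside.

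**Figure D2:**
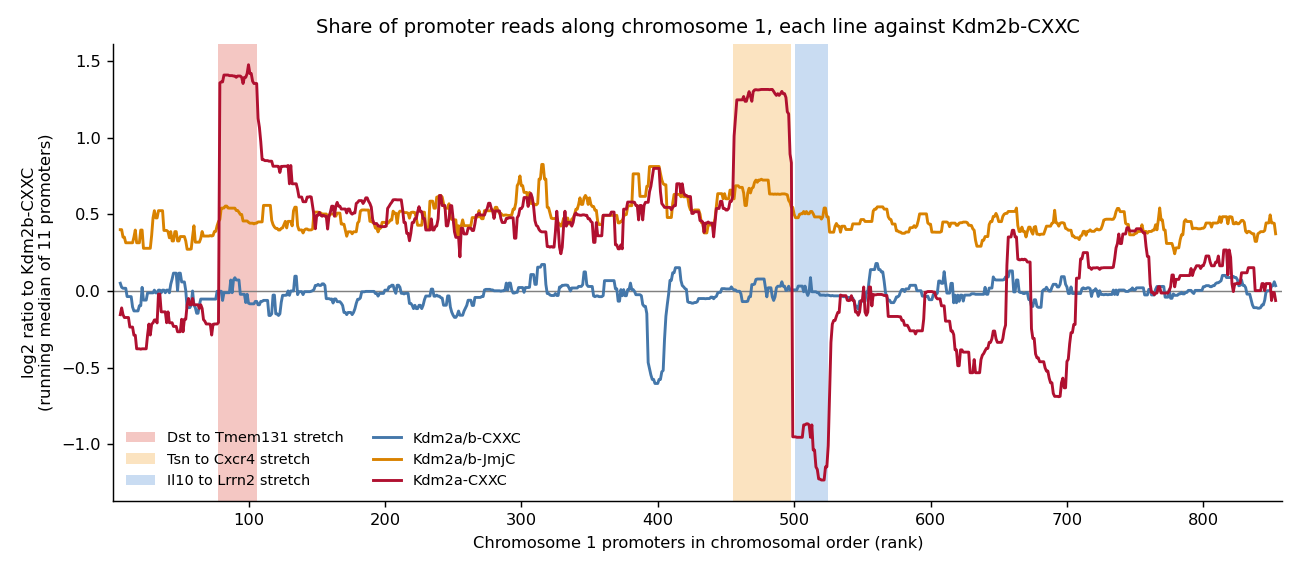
Running median over 11 promoters of the log2 ratio of each line to Kdm2b-CXXC, against the order of the 858 chromosome 1 promoters, with the 3 stretches shaded. Kdm2a/b-JmjC stays above 0, between 0.24 and 0.83, Kdm2a-CXXC moves in steps between -1.23 and 1.48, and Kdm2a/b-CXXC stays near 0 except for a single dip to -0.60.

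To set each stretch against its own chromosome, each library's log2 ratio to the average of the lines it does not belong to was summarised by its median over a stretch, and the median of the chromosome 1 promoters outside the stretches was subtracted. In the Dst to Tmem131 stretch the Kdm2a-CXXC libraries stood at 1.05, 1.13 and 1.14 without treatment and at 1.23, 1.28 and 1.21 after tamoxifen, a mean of 1.17 ± 0.084 (SD, n = 6). In the Tsn to Cxcr4 stretch they lay between 0.93 and 1.00, with a mean of 0.97 ± 0.025, and in the Il10 to Lrrn2 stretch between -1.35 and -1.22, with a mean of -1.29 ± 0.055. In the Dst to Tmem131 stretch, libraries of the other lines lay between -0.48 and -0.27. They lay between -0.54 and -0.058 in the Tsn to Cxcr4 stretch and between 0.31 and 0.61 in the Il10 to Lrrn2 stretch. Kdm2a-CXXC is in the reference of these lines, so its own departure pushes their values the opposite way. Set against Kdm2b-CXXC alone, Kdm2a/b-CXXC stood at -0.021, 0.0055 and -0.0082 in the stretches and -0.011 outside. Kdm2a/b-JmjC stood at 0.53, 0.67 and 0.49, and at 0.45 outside. The differences between lines were present in untreated cells.

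In the Dst to Tmem131 stretch, 22 of 29 promoters had all 6 Kdm2a-CXXC libraries above all 20 libraries of the other lines, as did 32 of 42 in the Tsn to Cxcr4 stretch. Over all 14993 promoters with enough reads the share was 2.01%, and outside the stretches on chromosome 1 it was 19 of 763. In the Il10 to Lrrn2 stretch 19 of 24 promoters had all Kdm2a-CXXC libraries below the others, against 1.19% of all promoters and 32 of 763 outside the stretches. Since the line contrast chose the stretches, these shares describe them and carry no test. The neighbours share DNA as well as libraries, and 3 pairs of adjacent promoters in the stretches overlap, so that some reads count at both.

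The first of the raised stretches opened inside the gene Dst. Dst, which encodes the cytoskeletal linker dystonin, has 3 promoters in the set. At the promoter chr1:33908025-33908424 the Kdm2a-CXXC libraries had 28.3 to 47.0 RPM (median 39.4), and the medians of Kdm2a/b-JmjC, Kdm2a/b-CXXC and Kdm2b-CXXC were 63.2, 47.4 and 48.2. At the next one (chr1:34011625-34012024) Kdm2a-CXXC had 15.7 to 35.6 RPM (median 24.5), with medians of 44.9, 38.5 and 40.3 in the same order of lines. Both were lower in Kdm2a-CXXC than in the other lines by their medians, although the ranges overlapped, except with Kdm2a/b-JmjC at the first. At the third Dst promoter (chr1:34160130-34160529), which was named after its values were seen and had a mean of only 19.7 reads, Kdm2a-CXXC had 11.7 to 23.2 RPM (median 18.7) and the other medians were 8.33, 6.58 and 5.84. There the order was the opposite, and the Kdm2a-CXXC libraries lay above all others.

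The next promoter, that of Ccdc115, an assembly factor of the vacuolar proton pump, had 384 to 422 RPM in Kdm2a-CXXC (median 396). Kdm2a/b-JmjC had 191 to 224, Kdm2a/b-CXXC 123 to 167 and Kdm2b-CXXC 119 to 145, which made the promoter 2.91-fold higher in Kdm2a-CXXC than in the mean of the other CXXC lines. It lies head to head with Imp4, a ribosomal RNA processing factor, and their intervals overlap. Among promoters with at least 50 reads, the 4 with the largest ratios to the mean of all other lines were Ankrd39 (3.02-fold), Amer3 (2.99-fold), Lman2l, a cargo receptor of the early secretory pathway (2.98-fold), and Cnnm3, of a family of magnesium transport mediators (2.90-fold), with folds given against the other CXXC lines. Ankrd39 had 310 to 332 RPM in Kdm2a-CXXC, with medians of 147, 106 and 106 in Kdm2a/b-JmjC, Kdm2a/b-CXXC and Kdm2b-CXXC. No library of the other lines reached the lowest Kdm2a-CXXC library at these promoters.

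Arid5a, which encodes an RNA-binding protein with an ARID domain, was the member of the chromatin list in this stretch. Its Kdm2a-CXXC libraries had 175 to 209 RPM against 63.0 to 122 in all others, 2.58-fold the level of the other CXXC lines. The smallest ratios were those of the Dst promoter at 34011625 (0.617-fold) and of Fam178b (1.32-fold), whose Kdm2a-CXXC libraries (24.7 to 41.3 RPM) overlapped those of every other line. Zap70, the T cell receptor kinase, had few reads, with a median of 37.0 RPM in Kdm2a-CXXC and 15.4, 11.4 and 11.4 in the other lines at the promoter chr1:36778784-36779183. The stretch ended with Tmem131 (180 to 201 RPM in Kdm2a-CXXC, 59.1 to 103 in the others, 2.69-fold). The first promoters beyond, Inpp4a and Coa5, were still raised, by 1.76-fold and 1.82-fold.

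The Tsn to Cxcr4 stretch follows a part of the chromosome in which few promoters were measured. The last ones before it were Serpinb8 (1.18-fold over the other CXXC lines) and Dsel (1.39-fold). Tsn, which encodes the nucleic acid binding protein translin, had 164 to 185 RPM in Kdm2a-CXXC and medians of 117, 77.2 and 72.8 in Kdm2a/b-JmjC, Kdm2a/b-CXXC and Kdm2b-CXXC. Its neighbour Nifk, a nucleolar partner of Ki-67, had 177 to 205 in Kdm2a-CXXC with medians of 134, 80.2 and 79.2. At both, all 6 Kdm2a-CXXC libraries were above every other library.

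The gene lists were drawn up with earlier results of these data known, so counts of their members carry no test. The Tsn to Cxcr4 stretch holds 42 of the 858 chromosome 1 promoters with enough reads. Of the 20 promoters from the list of replication, cell cycle and genome stability genes that had enough reads, 6 lay in it. Besides Tsn and Nifk these were Clasp1, a microtubule-stabilising protein, Ddx18, an RNA helicase, Ccnt2, a cyclin of the elongation factor P-TEFb, and Mcm6, a subunit of the replicative helicase. Mcm6 had 273 to 341 RPM in Kdm2a-CXXC and at most 226 in any library of the other lines, and Ccnt2 had 278 to 312 with medians of 187, 122 and 117. The folds of the 6 over the other CXXC lines ran from 2.34 (Tsn) to 2.60 (Clasp1). All 6 had Kdm2a-CXXC libraries above every other library, as neighbours in the same stretch. The same held for 32 of the 42 promoters of the stretch and 2.01% of all promoters.

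Among 29 promoters of the development and pluripotency list with enough reads, 4 lay in the stretch, beside 42 of all 858 on chromosome 1. The promoter of Tfcp2l1, a transcription factor of the naive pluripotency network, had 164 to 226 RPM in Kdm2a-CXXC and medians of 122, 73.7 and 88.9 in Kdm2a/b-JmjC, Kdm2a/b-CXXC and Kdm2b-CXXC, 2.38-fold over the other CXXC lines. Gli2, a transcription factor of Hedgehog signalling, stood at 2.09-fold and Inhbb, a subunit of activin B, at 3.01-fold. En1, a homeobox gene, had the smallest (1.41-fold), with 25.5 to 45.3 RPM in Kdm2a-CXXC and 20.3 to 49.5 in Kdm2a/b-JmjC. The Kdm2a-CXXC libraries were apart from all others at Tfcp2l1, Gli2 and Inhbb but not at En1. Over all of chromosome 1 the medians of the development and replication lists were -0.088 and 0.10 on the log2 scale against the mean of the other lines.

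Besides Inhbb, the largest ratios to the mean of all other lines were those of Tmem177, Celrr and Ralb, at 2.90-fold, 2.84-fold and 2.66-fold over the other CXXC lines. At the far edge Dars, the aspartyl-tRNA synthetase, had 232 to 266 RPM in Kdm2a-CXXC and 76.8 to 171 in the other lines (2.59-fold). Cxcr4, a chemokine receptor, had 58.4 to 73.7 against 46.4 to 70.4 in Kdm2a/b-JmjC (1.86-fold over the other CXXC lines), and Thsd7b beyond the edge was at 1.77-fold. The ratio was thus smaller at these last members than at Dars, and their ranges met those of Kdm2a/b-JmjC.

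Between Thsd7b and Yod1 the level in Kdm2a-CXXC went from above to below that of the other lines. Yod1, which encodes a deubiquitinase, had 19.8 to 30 RPM in Kdm2a-CXXC, against medians of 68.4 (Kdm2a/b-JmjC), 49.7 (Kdm2a/b-CXXC) and 49.3 (Kdm2b-CXXC). Its fold against the other CXXC lines was 0.507, and that of AA986860 was 0.516. At both, the Kdm2a-CXXC libraries lay below every other library, although they lie before Il10, outside the stretch.

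Of the 12 genes listed for the neighbourhood of Il10, 4 had promoters with enough reads, all in the Il10 to Lrrn2 stretch. Mapkapk2, a kinase downstream of p38, had 14.2 to 19.8 RPM in Kdm2a-CXXC and medians of 54.5, 46.6 and 44.1 in the other lines. Dyrk3, a kinase of the DYRK family, had 34.7 to 48.9 with medians of 135, 87.0 and 93.3, and Eif2d, a translation initiation factor, had 26.9 to 40 with medians of 112, 88.7 and 82.0. The promoter of Rassf5, a Ras effector, had 5.39 to 17.5 with medians of 54.3, 36.9 and 33.6. These 4 promoters stood at 0.398, 0.472, 0.397 and 0.325 times the level of the other CXXC lines. At each, all Kdm2a-CXXC libraries were below all others, as at 19 of the 24 promoters of the stretch and 1.19% of all promoters. The Il10 promoter itself, with a mean of 9.88 reads, had 0 to 4.04 RPM in Kdm2a-CXXC and overlapped the other lines, as did Ikbke with a mean of 11 reads.

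The lowest promoter of the stretch was that of Nfasc, an adhesion molecule of axons, at chr1:132741598-132741997. It had 6.47 to 13.1 RPM in Kdm2a-CXXC and medians of 59.9, 36.8 and 40.3 in Kdm2a/b-JmjC, Kdm2a/b-CXXC and Kdm2b-CXXC, a fold of 0.267. Rbbp5, a subunit of histone H3K4 methyltransferase complexes and the member of the chromatin list here, had 16.6 to 27.8 with medians of 78.1, 48.6 and 45.6 (0.453-fold). By the ratio to the mean of all other lines, the smallest departures were those of Slc45a3 (0.616-fold), Pm20d1 (0.594-fold) and the neighbours Fam72a (0.577-fold) and Srgap2 (0.572-fold), whose intervals do not overlap, with folds given against the other CXXC lines. At Slc45a3 and Pm20d1 the Kdm2a-CXXC ranges reached those of other lines.

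At the upper edge, Lrrn2 stood at 0.422-fold and Pik3c2b, a phosphoinositide kinase just outside the stretch, at 0.374-fold. Ppp1r15b, which encodes a subunit that directs a phosphatase to eIF2α, had 77.0 to 95.7 RPM in Kdm2a-CXXC and medians of 200, 124 and 135, a fold of 0.651. It still lay below all other libraries, although its ratio was between those of its neighbours on either side.

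**Figure D3:**
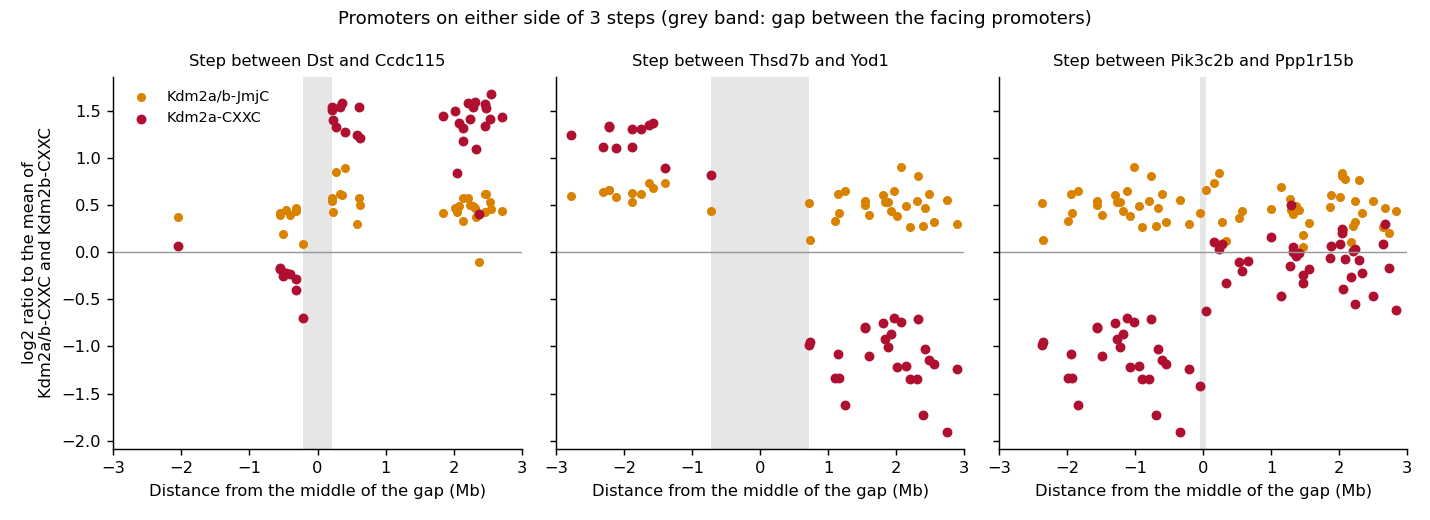
Log2 ratio of Kdm2a-CXXC and of Kdm2a/b-JmjC to the mean of Kdm2a/b-CXXC and Kdm2b-CXXC for single promoters, against the distance in Mb from the middle of the gap at 3 steps. Kdm2a-CXXC promoters change level across each gap, from a median of -0.16 to 1.44 at Dst and Ccdc115, from 1.26 to -1.08 at Thsd7b and Yod1 and from -1.08 to -0.091 at Pik3c2b and Ppp1r15b, while the 5 segments fitted to Kdm2a/b-JmjC have medians between 0.40 and 1.14.

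The edges given in Mb were then compared with a division of the chromosome into segments of constant level, fitted to the log2 ratio of Kdm2a-CXXC to the mean of the other CXXC lines at the 725 promoters with a mean of at least 50 reads. The division was chosen after the values were seen and is a description. It gave 13 segments on chromosome 1, and between 1 and 5 on each of the other 19 chromosomes. The running median spanned 2.66 log2 units on chromosome 1 and 2.93 on chromosome 14, which had 4 segments, and between 0.382 and 0.921 on the other chromosomes.

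The first 70 promoters, from Sox17 to Dst, had a median log2 ratio of -0.16, and the 21 from Ccdc115 to Tmem131 had 1.44. The 26 from Inpp4a to Mfsd9 followed at 0.87 and the 213 from Pantr1 to Ackr3 at 0.50. The raised level came down in steps and stayed above that of the start of the chromosome. From Tsn to Thsd7b (39 promoters) it was 1.26, from Yod1 to Pik3c2b (23 promoters) -1.08, and from Ppp1r15b to Npl (73 promoters) -0.091. All 39 and 21 promoters of the raised segments were above 0, and 0 of the 23 of the lowered one.

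Further along, 34 promoters from Rgs8 to Prdx6 stood at -0.37, 17 from Suco to Atp1b1 at 0.27, 26 from Sft2d2 to Olfml2b at -0.51 and the last segment, from Atf6 to Cr2, at 0.15. The step between Thsd7b and Yod1 was the largest, at -2.35 log2 units across 1444 kb, and that between Pik3c2b and Ppp1r15b lay within 84.8 kb. Fitted to the untreated libraries alone, 10 of the 12 steps fell at the same promoter and all 12 within 3 promoters. With the tamoxifen-treated libraries alone 13 steps were fitted, and 10 of the 12 fell at the same promoter, with the same number within 3. That fit had an added step between Efcab2 and Kif26b. Its moved steps lay between Gpr45 and Tgfbrap1 and between Glul and Ier5. The steps that moved in the untreated libraries put Ppp1r15b in the lowered segment and Atf6 in the one before.

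The segment from Cops8 to Hes6, outside the 3 stretches, was found in all 3 comparisons of lines that were divided this way, all of which involve Kdm2a/b-CXXC and Kdm2b-CXXC, and it was named after its values were seen. It spans chr1:90603225-91413422, and 12 of its 17 promoters had at least 20 reads. The 8 promoters with at least 50 reads together took 694 to 820 RPM in Kdm2a/b-JmjC (median 760) and 766 to 808 in Kdm2a-CXXC (median 779). They took 381 to 437 in Kdm2b-CXXC (median 407) and 241 to 295 in Kdm2a/b-CXXC (median 282). The first pair overlapped each other and lay above the Kdm2b-CXXC libraries, which in turn lay above all Kdm2a/b-CXXC libraries.

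Hes6, a basic helix-loop-helix factor of the Hes family and a member of the development list, had 130 to 170 RPM in Kdm2a/b-JmjC, 137 to 171 in Kdm2a-CXXC, 71.0 to 85.1 in Kdm2b-CXXC and 38.4 to 69.4 in Kdm2a/b-CXXC. Cops8, a subunit of the COP9 signalosome, had 105 to 119, 103 to 134, 49.1 to 60.8 and 20.8 to 46.5 in the same order. Both followed the order of the summed reads, without overlap between Kdm2b-CXXC and Kdm2a/b-CXXC. Kdm2a/b-CXXC was lowest and Kdm2b-CXXC the next lowest by median at all 12 promoters, and at 4 of the 12 their libraries did not overlap, against 0.18% of all promoters. The log2 ratio of Kdm2a/b-CXXC to Kdm2b-CXXC ran from -0.76 to -0.47 over the 12.

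The promoters on either side did not share this. Per2, a component of the circadian clock that lies 45.7 kb beyond Hes6, had 105 to 117 RPM in Kdm2a/b-CXXC, within the spread of Kdm2b-CXXC (median 121, lowest 105), and Ackr3, the last before Cops8, had 41.5 to 74.5 and 51.1 to 62.7. In these the CXXC lines with a shared origin overlapped. The segment also held Ube2f, a conjugating enzyme for NEDD8, Scly, the selenocysteine lyase, Erfe, the hormone erythroferrone, and the phosphatase gene Ilkap. Fitted to Kdm2a/b-JmjC it stood at a median of 1.14, where the neighbouring segments were at 0.49 and 0.61, and fitted to Kdm2a/b-CXXC against Kdm2b-CXXC at -0.58, with neighbours at -0.031 and -0.0027.

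**Figure D4:**
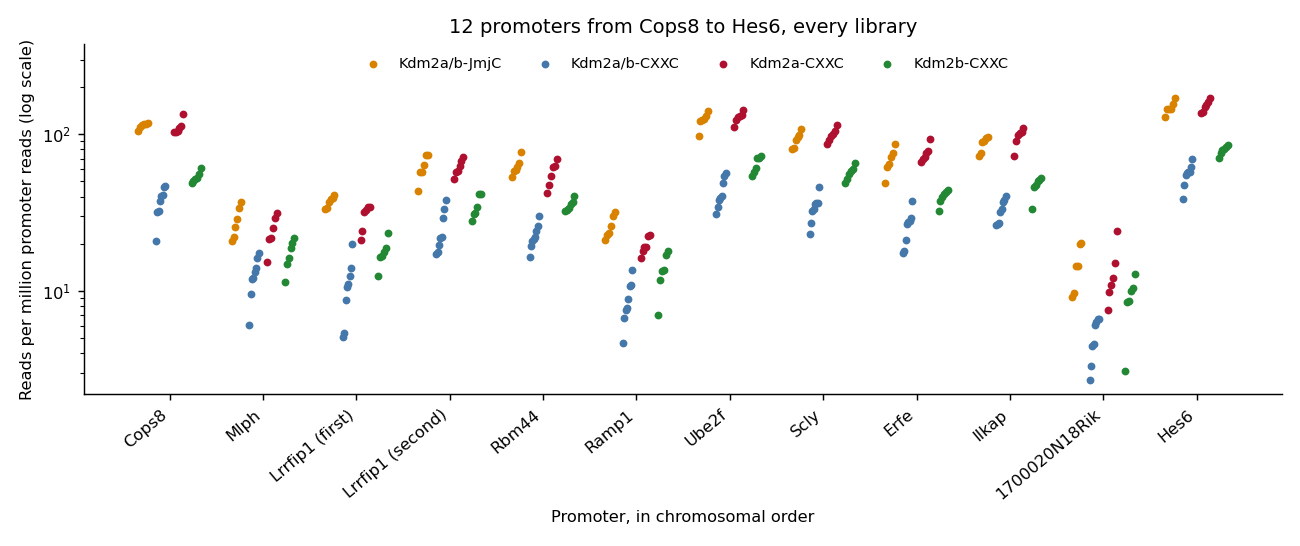
RPM (log scale) of every library at 12 neighbouring promoters from Cops8 to Hes6, coloured by line. Kdm2a/b-CXXC has the lowest median and Kdm2b-CXXC the next lowest at all 12, and the 8 promoters with at least 50 reads sum to medians of 282 and 407 there against 760 and 779 in Kdm2a/b-JmjC and Kdm2a-CXXC.

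The departures of Kdm2a-CXXC were seen in CpG-rich and in other promoters. In the Dst to Tmem131 stretch the median log2 ratio to the other CXXC lines was 1.47 at 20 CpG-rich promoters and 1.27 at 9 others, in the Tsn to Cxcr4 stretch 1.26 at 31 and 1.27 at 11, and in the Il10 to Lrrn2 stretch -1.11 at 20 and -1.15 at 4. By signal, promoters with 20 to 100 reads stood at 1.27, 1.23 and -1.23 and those with at least 100 reads at 1.50, 1.27 and -0.96. The medians of weak and strong promoters thus had the same sign in each stretch. Single promoters could differ, as the Dst promoter at 34011625 did among the weaker ones, with a log2 ratio of -0.70.

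The question for which the lines were made is what tamoxifen changes. On the calibrated scale, 0 chromosome 1 promoters passed a limma adjusted p of 0.05 with a fold over 1.4 in any line, with 1083 tested in Kdm2a/b-JmjC and 940 in the double CXXC line, Kdm2a/b-CXXC, then 1087 for Kdm2a-CXXC and 1047 for Kdm2b-CXXC. The share called over all promoters for Kdm2a/b-JmjC was 0.0757% and 0% in each other line. At an unadjusted p under 0.05 there were 286, 34, 86 and 10 chromosome 1 promoters, of which 282 of the 286 in Kdm2a/b-JmjC were lower. The background at that level was 20.6%, 4.65%, 8.39% and 0.669% of all promoters in the same order, and the chromosome 1 shares were 26.4%, 3.62%, 7.91% and 0.955%. With TMM scaling these counts were 65 (27 higher and 38 lower), 101, 61 and 94, beside 5.62%, 9.63%, 6.21% and 7.78% of all promoters. On recovered whole reads, the quasi-likelihood test of edgeR called 12 in Kdm2a/b-JmjC, all lower, beside 0.658% of all promoters. DESeq2 called 2 there, Ier5 and Degs1, the latter named after its values were seen, beside 0.0699% of all promoters. Both called 0 in the other lines. The count of 0 also rests on single libraries, since with tamoxifen replicate 1 of Kdm2a/b-JmjC left out it was 51, beside 3.39% of all promoters. With untreated replicate 3 left out it was 9, beside 0.336%, and with tamoxifen replicate 2 left out 2, beside 0.0687%. Leaving out tamoxifen replicate 3 of Kdm2a-CXXC gave 4 there, beside 0.235%. These limma fits did not use the replicate number. With it as a block, limma called 8 in Kdm2a/b-JmjC, beside 0.361% of all promoters, and 12 in Kdm2a-CXXC, beside 1.06%. In the other lines it called 0 on chromosome 1.

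These values sit on shifts of whole libraries. The median log2 change over all promoters was -0.21, 0.087, -0.18 and 0.099 in that order of lines, and on chromosome 1 it was -0.22, 0.045, -0.19 and 0.083. The chromosome 1 medians moved when single libraries were left out, which also leaves the replicate numbers of the groups unmatched. In Kdm2b-CXXC the median was -0.093 without untreated replicate 2, -0.13 without tamoxifen replicate 1, 0.29 without untreated replicate 1, 0.23 and 0.16 without tamoxifen replicates 2 and 3, and 0.050 without untreated replicate 3. In Kdm2a/b-CXXC it was -0.065, 0.030, 0.094 and 0.15 without tamoxifen replicates 1 to 4 in turn and 0.032 to 0.063 without an untreated library. In Kdm2a-CXXC it ran from -0.28 without tamoxifen replicate 3 to -0.086 without tamoxifen replicate 1, and in Kdm2a/b-JmjC from -0.27 to -0.15, without tamoxifen replicates 1 and 2. With TMM scaling, which removes such a shift, the chromosome 1 medians were -0.015, -0.042, -0.019 and -0.019. In Kdm2a-CXXC the medians of the Dst to Tmem131, Tsn to Cxcr4 and Il10 to Lrrn2 stretches were -0.14, -0.18 and -0.16 on the calibrated scale and 0.033, -0.0053 and 0.0037 with TMM, so that in the first and last of them the direction depends on the scaling, as it does for the chromosome 1 medians of Kdm2a/b-CXXC and Kdm2b-CXXC. The rest of chromosome 1 stood at -0.19 and -0.022 in the same line.

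**Figure D5:**
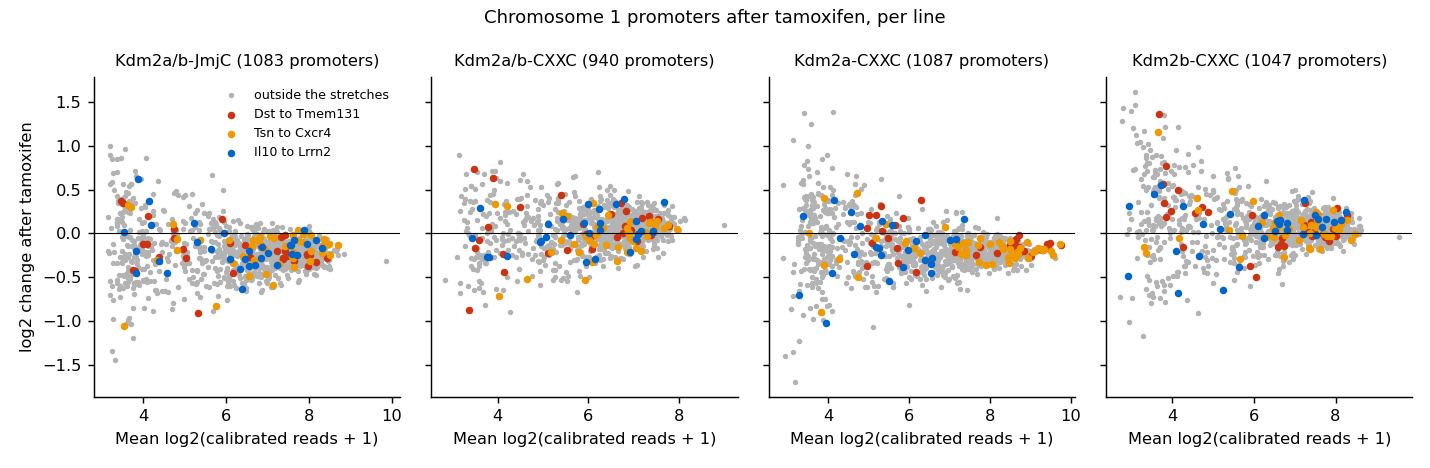
Log2 change after tamoxifen (calibrated scale) against mean log2(calibrated reads + 1) for the chromosome 1 promoters tested in each line, with promoters of the 3 stretches in colour. The coloured promoters lie within the cloud of the others. Medians over all chromosome 1 promoters tested are -0.22, 0.045, -0.19 and 0.083 from left to right.

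The promoters with the smallest unadjusted p were looked at in each line. In Kdm2a/b-JmjC, Hjurp, the chaperone of the centromeric histone CENP-A, had 1025, 1016 and 1096 calibrated reads in the untreated libraries and 894, 765 and 873 after tamoxifen, and Ier5, an immediate early gene, had 274, 238 and 264 against 183, 176 and 170. Neither pair of groups overlapped, which a choice by the smallest unadjusted p favours. The log2 changes were -0.31 (SE 0.075, limma adjusted p = 0.0481) and -0.55 (SE 0.13, limma adjusted p = 0.0504), the former under the fold threshold and the latter above the p threshold. Without tamoxifen replicate 1, Ier5 passed (-0.57, limma adjusted p = 0.0182). With TMM scaling the log2 changes of Hjurp and Ier5 were -0.11 and -0.34.

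In Kdm2a/b-CXXC, Prdm14, a regulator of pluripotency, had 66.2, 66.8, 72.2 and 62.9 calibrated reads without treatment and 58.6, 36.5, 51.8 and 27.3 after tamoxifen (log2 change -0.67, SE 0.23, limma adjusted p = 0.863). Cdk15, a cyclin-dependent kinase, had 62.2, 62.8, 63.7 and 42.6 against 125, 87.4, 94.9 and 73.8 (0.70, SE 0.21, limma adjusted p = 0.544). In Kdm2a-CXXC, Pou3f3, a POU-domain transcription factor, had 39.2, 52.5 and 55.7 against 14.8, 28.1 and 27.9 (-1.07, SE 0.30, limma adjusted p = 0.579). The groups did not overlap at these promoters, but a choice by the smallest unadjusted p favours that. The share of all promoters without such overlap was not counted. None of the promoters named here passed the test with all libraries and no replicate block. Without tamoxifen replicate 3, Pou3f3 passed (-1.21, limma adjusted p = 0.0495).

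Msc, a basic helix-loop-helix repressor, had 72.6, 79.9 and 99.3 against 34.9, 44.5 and 66 in Kdm2a-CXXC, with a limma adjusted p of 0.579, and without tamoxifen replicate 3 it passed at 0.0495. In Kdm2b-CXXC the promoters named were Scyl3 (10.4, 3.54 and 12.3 calibrated reads against 29.2, 15.8 and 21.2) and Kcnj13 (15.0, 8.50 and 9.66 against 37.6, 20.7 and 22.9), both with a limma adjusted p of 1. Their log2 changes were 1.35 (SE 0.56) and 1.21 (SE 0.51), the largest named here and on the fewest reads.

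Of the lists, 0 promoters passed in any line without the replicate block. The development and pluripotency list had 12 of 33 promoters (Kdm2a/b-JmjC), 1 of 30 (Kdm2a/b-CXXC), 5 of 31 (Kdm2a-CXXC) and 0 of 33 (Kdm2b-CXXC) with an unadjusted p under 0.05, where the shares of all promoters were 20.6%, 4.65%, 8.39% and 0.669%. The replication and genome stability list had 8 of 22, 0 of 20, 1 of 22 and 0 of 21, the chromatin list 3 of 13, 0 of 11, 0 of 12 and 0 of 13, and the Il10 neighbourhood 1 of 11, 0 of 4, 0 of 4 and 0 of 8. Median log2 changes of the lists ran from -0.32 to -0.13 in Kdm2a/b-JmjC and from -0.26 to -0.18 in Kdm2a-CXXC, beside medians of -0.21 and -0.18 over all promoters.

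The line differences were also seen after tamoxifen. The excess of the Dst to Tmem131 stretch in Kdm2a-CXXC was 1.11 ± 0.047 without and 1.24 ± 0.037 with tamoxifen (SD, n = 3 and n = 3), without overlap, and the exact two-sided permutation p was 0.1, the smallest that 3 against 3 libraries can give. The chromosome 1 share in Kdm2a/b-CXXC was 5.58% ± 0.0242 and 5.45% ± 0.0577 (SD, n = 4 and n = 4), again without overlap, with an exact two-sided permutation p of 0.0286, the smallest for 4 against 4. Over the 20 such tests, 5 measures in each line, the Benjamini-Hochberg adjusted values were 0.286 and 0.190, and the smallest was 0.190. Groups also did not overlap for the Dst to Tmem131 excess in Kdm2a/b-CXXC, at -0.445 without and -0.382 with tamoxifen. The same held for the chromosome 1 share in Kdm2a-CXXC (7.25% and 7.20%). It held too for the shift outside the stretches in Kdm2a/b-CXXC (-0.196 and -0.233) and Kdm2b-CXXC (-0.197 and -0.227). At the other measures the groups overlapped.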

How the data were processed

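The authors aligned paired-end reads to joined mm10 and dm6 genomes with Bowtie 2, and removed multi-mapped, duplicate, blacklisted and mitochondrial reads. The deposited signal of each library is its mouse reads in 400 bp promoter intervals divided by a size factor from the Drosophila spike-in, corrected with matched genomic DNA. The deposited comparison columns (means, fold changes, errors and p-values of tamoxifen against untreated cells) were not used. Size factors and whole reads were recovered from the steps between values (100% within 0.01 of a whole read; 1.49 to 3.03 M promoter reads per library). The study's methods call replicates biological; where cultures were not separate, p-values measure only the spread between libraries.

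The chromosome 1 promoters, stretches and gene lists were chosen with earlier results of these data known. Line contrasts used RPM (reads at a promoter over all promoter reads of the library, times 1000000; pseudocount 0.5, mean of at least 20 reads) and no test. Segments, chosen after the data were seen, were fitted by least squares with a penalty per step and at least 5 promoters each. Named promoters were, per stretch, the 4 largest and 2 smallest Kdm2a-CXXC ratios among promoters with at least 50 reads, the 2 on either side of each edge, listed genes in a stretch and, after tamoxifen, the 2 smallest unadjusted p per line where none passed. Tamoxifen was tested within each line with limma 3.58.1 on log2(calibrated reads + 1) over all promoters that passed filterByExpr of edgeR 4.0.16, which understates changes at low values, and p-values were Benjamini-Hochberg adjusted; the thresholds were 0.05 and 1.4-fold. The edgeR quasi-likelihood and DESeq2 (1.42.0) tests on recovered reads were alternatives, the former added after the data were seen. Other alternatives were scaling by total reads, TMM or median ratios, other pseudocounts, filters and edges, left-out libraries and a replicate block. The fit and the segmentation were tested on simulated data. Symbols were found for 1219 of 1224 promoters, from RefSeq tables of GRCm38.p6 (the build of mm10) and, where these gave none, from GENCODE metadata. Coordinates are 1-based. R 4.3.3 and Python 3.11.15 were used.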

Additional observations from a re-analysis of the deposited data

Results flagged for a closer look

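The log2 excess of the Dst to Tmem131 stretch in tamoxifen replicate 3 of Kdm2a/b-CXXC was -0.307601. Its gap to the nearest of the other 3 libraries of its group, divided by the range of the group, was above Dixon's 95% critical value for 4 samples. It was 1 of 10 groups of 4 examined, and chance flags about 1 in 20.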

How the results depend on the processing

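The direction of the chromosome 1 medians after tamoxifen in Kdm2a/b-CXXC and Kdm2b-CXXC turned with TMM scaling and with single libraries left out. The count of chromosome 1 promoters called in Kdm2a/b-JmjC was 0 with limma, 2 with DESeq2 and 12 with edgeR, and leaving out a library gave 0 to 51. In Kdm2a-CXXC leaving out a library gave 0 to 4, and in the other lines 0. With TMM scaling, same-numbered libraries correlated weakly in their deviations from group means (13 pairs, correlations of -0.0056 to 0.072, 8 best with their own number). TMM removes shifts of whole libraries, so this does not measure pairing on the calibrated scale. There a block on the replicate number moved the count of all promoters with a limma unadjusted p under 0.05. It went from 1488 to 3895 in Kdm2a-CXXC, 120 to 1785 in Kdm2b-CXXC, 764 to 733 in Kdm2a/b-CXXC and 3537 to 3544 in Kdm2a/b-JmjC. With that block, 8 chromosome 1 promoters were called in Kdm2a/b-JmjC (0.361% of all promoters) and 12 in Kdm2a-CXXC (1.06%). Among them were Ier5, Pou3f3 and Msc, at limma adjusted p of 0.0442, 0.0198 and 0.0189. TMM scaling with the block called 0 in these lines and 1, Prdm14, in Kdm2a/b-CXXC (0.14%) (edgeR and this last setting were chosen after seeing the data). The excess of the Dst to Tmem131 stretch was 1.06 with edges widened by 0.5 Mb. That of the Tsn to Cxcr4 stretch was 1.05 against the other CXXC lines alone and 1.01 at promoters that are not CpG-rich. That of the Il10 to Lrrn2 stretch was -1.22 with narrowed edges and -1.18 at promoters that are not CpG-rich. Leaving out a library gave 1.15 to 1.2, 0.96 to 0.98 and -1.30 to -1.28. The shift outside the stretches was 0.43 in Kdm2a/b-JmjC without the read filter, -0.24 (Kdm2a/b-CXXC) and 0.12 (Kdm2a-CXXC) with TMM, and 0.091 in Kdm2a-CXXC at 50 reads. The cause of these moves was not tested. Another 138 values answering a comparison stayed within the replicate spread or the count limit.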
